A study of Homo sapiens with 12 samples.

Results

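Heteronemin alone was set against control in HCT-116 cells, an established human colorectal carcinoma line of epithelial origin. The comparison covers all 770 genes of a NanoString PanCancer Progression panel, which counts fluorescent barcodes hybridised to single transcripts without amplification. Of the 12 samples of the study, 6 belong here: 3 labelled Control and 3 labelled Heteronemin, with RNA taken after 24 h. The other 6 received Tetrac or Heteronemin+Tetrac, and their values are given only beside those of heteronemin. The dose, and whether the control cells received a solvent, could not be taken from the sources used here. No label says whether the 3 samples of a group are separate cultures. The p-values therefore measure only how these samples spread, which may be technical.

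The values are the authors' group means of normalized counts, 1 for control and 1 for heteronemin per gene. Single samples were not analysed here, which leaves no SD, overlap of samples or depth to give. The lowest mean in the tables was 33, taken here as a floor that the authors set for low counts. By the rule of this comparison the genes were divided by control mean into 279 at the floor and 491 higher than it. A gene at the floor in control could only stay or rise, and 66 of the 279 stayed and had no p. The remaining 704 genes were tested by the authors. A gene is called here when the p in the authors' deposited table was under 0.05, without adjustment, and "rose" and "fell" are used only of called genes. A control mean just above the floor may average samples at the floor with samples above it, so a fold from such a level has a poorly measured base.

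Heteronemin is a sesterterpenoid made by a marine sponge and is known for toxicity to tumour cells in culture. The study's title names the blocking of EGF receptor signals by heteronemin and tetrac as its subject. The EGF receptor is a kinase that drives growth in many colorectal tumours through the ERK and PI3K pathways. Colorectal epithelial cells also depend on contacts with laminin in the basement membrane, on Notch and BMP signals that set their differentiation, and on stress and inflammatory factors such as AP-1. The panel counts transcripts of these pathways and measures neither phosphorylation nor growth.

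In control, the cells carried transcripts of colon epithelium: 8 of 9 measured markers were above the floor, among them EPCAM at 1814, KRT19 at 1604 and CLDN4 at 1001 in the authors' means. CEACAM5 was at the floor. Of 6 endothelial markers 5 were at the floor in control, of 3 blood markers 2, and of 8 fibroblast and muscle markers 6. After heteronemin the summed means of these other cell types were 242, 173 and 509, against 198, 102 and 298 in control. The called genes among them were CD34 and COL1A1. The part of such levels in any other result was not tested.

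**Figure D1:**
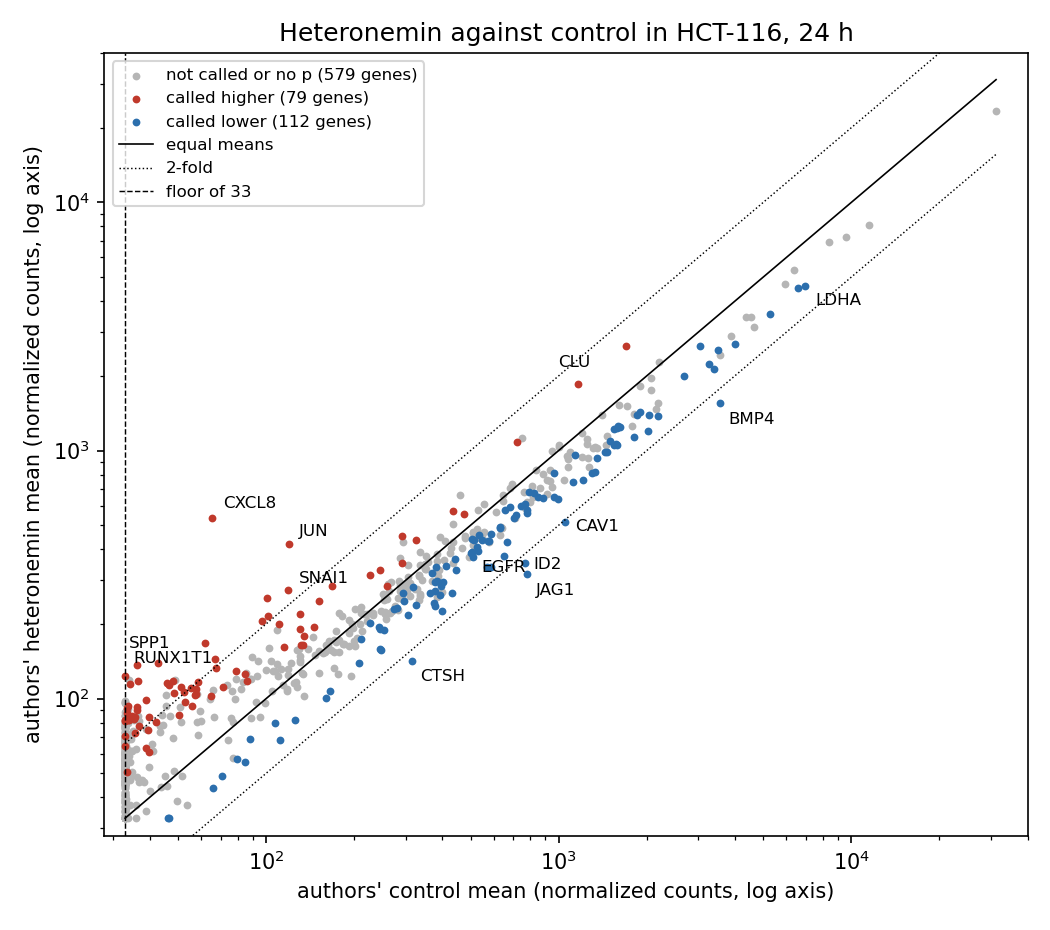
Each point is 1 of the 770 genes, with the authors' control mean on the x axis and the authors' heteronemin mean on the y axis, in normalized counts on log axes. Red points are the 79 genes called higher, blue points the 112 called lower, and grey points the rest, including 66 genes without a p. Genes left of about 100 lie mostly above the line of equal means and genes right of 200 mostly below it, while CXCL8 and JUN stand far above and JAG1, BMP4 and CTSH below.

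Over the panel, 191 of 704 tested genes were called (27.1%), 79 higher (11.2%) and 112 lower (15.9%). Among the 491 genes above the floor in control, 74 rose (15.1%) and 112 fell (22.8%), with a median log2 ratio of -0.07. Among the 213 tested genes at the floor in control, 5 rose (2.35%). Above the floor in control, 34 rises and 5 falls reached 2-fold. Most of these rises began at low levels: at a control mean of 100 or more, 4 rises and 5 falls reached it. With both columns scaled to the same panel sum, which raises every log2 ratio by the size of the panel's own shift of -0.25, 94 of the called genes lay above 0 and 97 below. These counts rest on unadjusted p-values. With Benjamini-Hochberg adjustment, 41 genes passed on the p-values as the authors' deposited table prints them, 19 higher and 22 lower, and these are the 41 genes with a p printed as 0. When each p was set to the upper end of its rounding interval, 0 passed.

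The direction followed the level of the gene in control. The 90 genes with a control mean above 33 and up to 50 had a median log2 ratio of 0.91, with 29 rises and 2 falls. For the 58 genes above 50 and up to 100 the median was 0.57, with 20 rises and 5 falls. For the 75 genes above 100 and up to 200 it was 0.04, with 14 rises and 5 falls. The 101 genes above 200 and up to 400 had a median of -0.16, with 6 rises and 27 falls, and the 75 above 400 and up to 800 a median of -0.30, with 3 rises and 34 falls. Of the 92 genes above 800, 2 rose and 39 fell, at a median of -0.40. The bands were drawn on the control mean alone, which is also the denominator of the ratio, so noise in that mean moves the 2 in opposite ways. How much of the trend arises that way was not tested. For some of the leading genes the rank among the genes of their own band of control level is therefore given as well. A count of called genes in a list is likewise read against the panel's 11.2% higher and 15.9% lower, and against 15.1% and 22.8% where members lay above the floor in control.

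**Figure D2:**
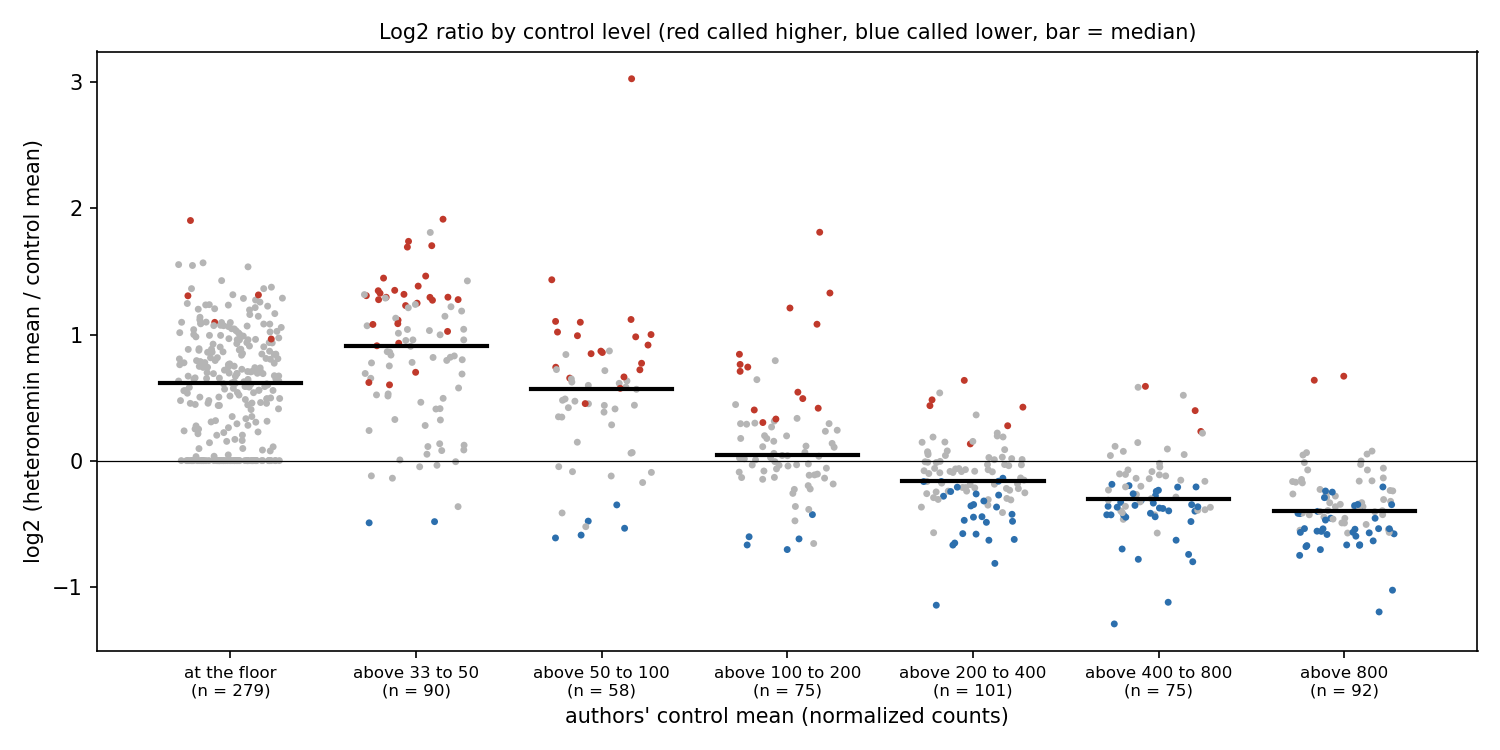
Each point is a gene, placed by its band of control mean (x axis, normalized counts) and its log2 ratio of heteronemin over control (y axis); black bars are band medians, red points are called higher and blue points called lower. The medians run from 0.91 in the band just above the floor to -0.40 above 800, and CXCL8 is the single point above 3.

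The largest rise of the panel was that of an inflammatory gene. CXCL8, the gene of interleukin-8, a chemokine that draws neutrophils, went from the authors' mean of 65.5 in control to 535, 8.16-fold higher, with a p printed as 0 in the authors' deposited table. It ranked first of the 58 genes in its band, where the next was CKMT1A at 2.7-fold. JUN, whose product is part of the transcription factor AP-1, rose from 119 to 419 and ranked first of 75. PTGS2, the inducible prostaglandin synthase, rose from 38.9 to 99.2, and the adhesion receptor ICAM1 from 39.9 to 61.2. The log2 ratio of ICAM1 was nevertheless below the median of its band, at a difference of -0.29. The TNF family ligand TNFSF12 fell from 87.9 to 68.9.

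Of 15 measured genes of the NF-kB and inflammatory list, 3 rose and 1 fell, beside 11.2% and 15.9% of tested genes on the panel. Their median log2 ratio was 0.65, against 0.11 for all 770 genes, but 7 of the 15 were at the floor in control and could only stay or rise. Over the 8 members above the floor the median was 0.18, against -0.07 for all genes above it. Of 12 chemokines, 10 were at the floor in control. Besides CXCL8, the eosinophil attractant CCL11 rose, from 33.8 to 84.2. Of 10 interleukins and interleukin receptors 1 was called, IL15, a growth factor of lymphocytes, which rose from 42.05 to 80.2. Of 5 chemokine receptors 0 were called. CXCR2, a receptor of interleukin-8, had means of 33.9 and 119, rank 2 of the 90 genes just above the floor, with p = 0.13 in the authors' deposited table.

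Among 5 measured AP-1 and immediate early genes, JUN, MYCL and NR4A3 rose. All 5 lay above the floor in control, where 15.1% of genes rose. MYCL, a relative of MYC, rose from 36.5 to 118, and the orphan nuclear receptor NR4A3 from 64.8 to 103. Their log2 ratios lay 0.78 and 0.09 above the medians of their bands. MYC itself was high in control, at 2068, and had a mean of 1964 after heteronemin, with p = 0.54 in the authors' deposited table. In the stress list of 7 genes, haem oxygenase, HMOX1, rose from 96.5 to 207, with rank 5 of 58 in its band. The superoxide dismutase SOD1 fell from 317 to 282, a log2 ratio of -0.17 that became 0.085 on equal panel sums. The stress cytokine GDF15 had means of 748 and 1119 and was not called, with p = 0.06 in the authors' deposited table.

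The promoters of CXCL8, JUN, LAMA3 and JAG1 are shown because these genes lead the inflammatory, AP-1, laminin and Notch results. The sequences are RefSeq's for GRCh38.p14, from 250 bases before to 50 bases after the first listed start, on the gene's own strand. Capitals mark matches to any of 4 motifs searched on both strands: AP-1 (TGANTCA), the cyclic AMP element (TGACGTCA), NF-kB and the antioxidant element (TGACNNNGC). They lie at chr4:73740319-73740618 (plus strand), chr1:58783998-58784297 (minus strand), chr18:23872770-23873069 (plus strand) and chr20:10673950-10674249 (minus strand).
CXCL8: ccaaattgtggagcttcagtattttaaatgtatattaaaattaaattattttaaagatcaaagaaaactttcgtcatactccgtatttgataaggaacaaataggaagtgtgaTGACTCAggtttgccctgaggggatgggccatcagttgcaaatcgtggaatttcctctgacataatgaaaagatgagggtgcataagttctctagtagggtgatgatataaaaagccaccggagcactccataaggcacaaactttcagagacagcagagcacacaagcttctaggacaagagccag
JUN: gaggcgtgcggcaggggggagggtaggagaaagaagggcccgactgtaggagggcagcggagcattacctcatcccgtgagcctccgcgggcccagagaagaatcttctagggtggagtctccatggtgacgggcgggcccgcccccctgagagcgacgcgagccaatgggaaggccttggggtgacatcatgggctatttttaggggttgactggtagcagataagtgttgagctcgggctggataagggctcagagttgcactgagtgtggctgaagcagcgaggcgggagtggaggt
LAMA3: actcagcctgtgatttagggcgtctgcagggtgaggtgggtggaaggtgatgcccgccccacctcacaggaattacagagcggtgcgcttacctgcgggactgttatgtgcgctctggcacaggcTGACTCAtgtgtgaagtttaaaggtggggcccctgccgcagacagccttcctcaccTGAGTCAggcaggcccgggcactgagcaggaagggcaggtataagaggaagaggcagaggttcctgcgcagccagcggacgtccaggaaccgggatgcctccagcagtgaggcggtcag
JAG1: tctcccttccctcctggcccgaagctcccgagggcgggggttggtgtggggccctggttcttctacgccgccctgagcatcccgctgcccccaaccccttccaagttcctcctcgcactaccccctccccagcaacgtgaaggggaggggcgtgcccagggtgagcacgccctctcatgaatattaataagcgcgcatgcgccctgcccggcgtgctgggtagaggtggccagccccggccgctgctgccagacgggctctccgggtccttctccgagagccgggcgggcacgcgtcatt
The CXCL8 window held 1 AP-1 match, TGACTCA, beginning 137 bases before the start, and the LAMA3 window held 2, TGACTCA at 125 and TGAGTCA at 69 bases before it. The JUN and JAG1 windows held no match to these letters. An AP-1 match was found in 3 of 54 promoters of called higher genes (5.56%), 6 of 89 of called lower genes (6.74%), 46 of 566 of panel genes (8.13%) and 2120 of all 27305 promoters (7.76%). The cyclic AMP element was found in 1.85% of called higher, 5.62% of called lower, 2.83% of panel and 1.98% of all promoters. NF-kB matches were found in 1.85%, 0%, 0.53% and 0.58% of these promoters in the same order, and antioxidant matches in 12.96%, 12.4%, 13.96% and 13.6%. The differences between these shares were not tested, and a match describes the letters only. Each motif was searched as 1 strict pattern, so a site with other letters stays unmarked and uncounted. The lack of an NF-kB mark in the CXCL8 window is therefore not evidence that such a site is absent. A promoter was listed for 566 of the 770 genes.

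Laminins of the basement membrane anchor epithelial cells through integrins that include ITGB4. The laminin chain gene LAMA3 rose from the authors' mean of 46.05 to 116, with rank 12 of 90 in its band. LAMB3, which encodes another chain, rose from 102 to 216, with rank 4 of 75. COL7A1, the collagen of anchoring fibrils, rose from 51.1 to 111. Among other chains, LAMA5 had means of 293 and 286 and LAMC1 of 286 and 288, neither called. On the cell side, ITGB4 fell from 1299 to 809, dystonin, DST, which links hemidesmosomes to filaments, fell from 578 to 433, and dystroglycan, DAG1, from 530.4 to 393. Of 13 tested basement membrane genes, 12 of them above the floor in control, 4 rose and 2 fell, beside 15.1% and 22.8% of genes above the floor. The median log2 ratio was 0.01 over the 17 measured.

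Of 15 tested genes in the integrin list, 10 of them above the floor in control, 5 fell and 0 rose. The list was drawn by symbol and also holds the gene of a protein that binds an integrin. On the panel 15.9% of tested genes, and 22.8% of those above the floor, fell. The collagen receptor chain ITGA2 fell from 377 to 237, rank 3 from the lowest of 101 in its band, and ITGB8, an activator of latent TGF-beta, from 208 to 139. The fibronectin receptor chain ITGA5 went from 279.9 to 232 and ITGA1 from 46.2 to the floor of 33. ITGB1, the partner of most of these alpha chains, had means of 2197 and 2278, with p = 0.74 in the authors' deposited table. Fibronectin, FN1, which many integrins bind, also fell to the floor, from 46.5. Of 10 tested collagens 3 rose, against 11.2% of tested genes: COL7A1, COL1A1 (from 67.2 to 144) and COL5A2 (from 57.8 to 109).

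Some of the other matrix genes were low in control. SPP1, the secreted phosphoprotein osteopontin, rose from 36.4 to 137 and ranked first of the 90 genes just above the floor. Dermatopontin, DPT, rose from 33.5 to 91.5, CCDC80 from 33.5 to 87.5 and the lysyl oxidase LOXL2 from 55.6 to 110.4. Of 14 proteoglycan and hyaluronan genes 3 rose and 0 fell, beside 11.2% and 15.9% of tested genes. The 3 were the syndecan SDC4 (from 474 to 557), the proteoglycan CSPG4 (from 71.0 to 112) and, from the floor, the hyaluronan synthase HAS1 (to 70.6). Peroxidasin, PXDN, which cross-links collagen IV, fell from 111 to 68.3, the lowest ratio of 75 in its band. Versican, VCAN, had means of 195 and 124, with p = 0.06 in the authors' deposited table.

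Proteases moved in both directions. CTSH, a lysosomal cathepsin, fell from 316 to 142, the lowest ratio of the 101 genes in its band, while CTSK, the collagen-degrading cathepsin, rose from 78.8 to 129.8. Of 10 tested metalloproteinases and TIMPs 2 fell and 0 rose, beside 15.9% and 11.2% of tested genes on the panel. The membrane protease MMP14 fell from 125 to 82.4 and the inhibitor TIMP1 from 1353 to 929.9. Of the 13 measured, 9 were at the floor in control. The sheddase ADAM17 rose from 434 to 571, rank 4 of 75 in its band, and ADAM9 fell from 780.2 to 558. Of the membrane serine proteases, prostasin, PRSS8, rose from 58.3 to 117 and matriptase, ST14, fell from 995 to 640.2. The aminopeptidase ANPEP rose from 36.3 to 92.3.

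**Figure D3:**
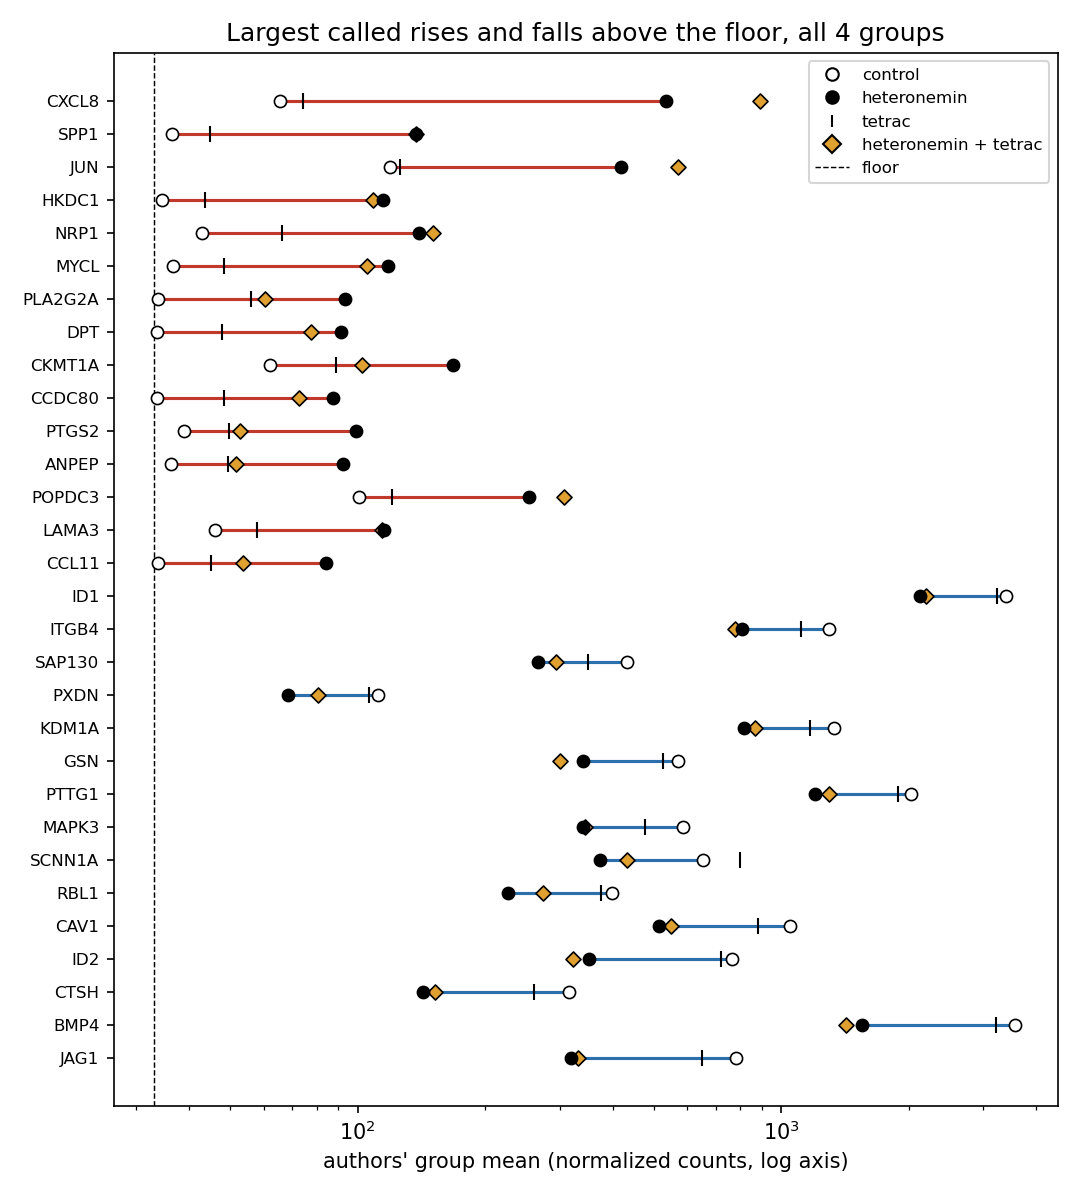
The 15 largest rises and 15 largest falls among called genes above the floor in control, with the authors' means of all 4 groups on a log axis in normalized counts; coloured lines join control (open circles) to heteronemin (black circles). The rises begin mostly near the floor (dashed line), with CXCL8, JUN, CKMT1A and POPDC3 starting further from it, and the falls begin between 111 (PXDN) and 3561 (BMP4).

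The Notch ligand JAG1 had the largest fall of the panel, from 782 in control to 319, which is 2.45-fold lower at a p printed as 0 in the authors' deposited table, and the lowest ratio of 75 in its band. The receptor NOTCH1 (177 and 173) and the nuclear effector RBPJ (999.9 and 1054) were not called. BMP4, a ligand of the TGF-beta family, fell from 3561 to 1549.8, the lowest ratio of the 92 genes above 800. ID2 and ID1, inhibitors of differentiation that BMP signals are known to induce, fell from 766 to 352 and from 3395 to 2128. The receptor BMPR2 fell from 65.7 to 43.6, the signal transducer SMAD1 from 395 to 284 and the receptor TGFBR2 from 384 to 298. ACVR1C and ACVRL1, other receptors of the family, rose from 36.3 to 89.8 and from 57.3 to 104. Of 29 tested TGF-beta and BMP genes, 23 of them above the floor in control, 10 fell and 2 rose. On the panel 15.9% of tested genes fell and 11.2% rose, and 22.8% and 15.1% of those above the floor. The median log2 ratio of the TGF-beta and BMP genes was -0.14 over 30 measured and 0.11 on equal panel sums. TGFB1 had means of 283 and 255 and was not called.

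EGFR itself fell, with authors' means of 502 in control and 385 after heteronemin and a p of 0.04 in the authors' deposited table. It ranked 24 from the lowest of 75 in its band, with a log2 ratio of -0.38 that differed by -0.08 from the band's median. ERBB2 (99.9 and 130.3) and ERBB3 (78.2 and 99.5) were not called. Downstream, MAPK3, which encodes ERK1, fell from 586 to 340.4 with rank 4 from the lowest of 75. PLCG1, the phospholipase recruited by the receptor, fell from 378 to 271 and STAT3 from 632 to 494. Of 17 EGFR and ERBB genes, 16 of them above the floor in control, 4 fell and 0 rose, a share of falls near the 22.8% of all genes above the floor. Of 15 tested PI3K, AKT and mTOR genes, 13 of them above the floor in control, 6 fell and 0 rose. On the panel 15.9% of tested genes fell and 11.2% rose, and 22.8% and 15.1% of those above the floor. The kinase AKT1 went from 1440.3 to 991 and AKT2 from 572 to 433. The log2 ratios of the 6 differed from their band medians by -0.16 (PIK3CA, the catalytic subunit) to 0.16 (RPS6KB1, the S6 kinase). The integrin-linked kinase ILK had means of 400.4 and 269, with p = 0.07 in the authors' deposited table.

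Of 8 measured cell cycle genes and tumour suppressors 7 fell, beside 15.9% of tested genes on the panel and 22.8% of genes above the floor in control. The 7 had control means above 200, where falls were more frequent: 26.7% of genes up to 400, 45.3% up to 800 and 42.4% above 800. PTTG1, which encodes securin, fell from 2026 to 1203 with rank 3 from the lowest of 92. RBL1, the retinoblastoma relative p107, fell from 399 to 227, rank 2 from the lowest of 101. The cell cycle regulator RGCC fell from 246 to 158 and the cyclin-dependent kinase inhibitor CDKN1A from 1499.8 to 1093. RB1 (586 to 460.1) and RBL2 (296 to 247) fell by less. CDKN1A and RB1 lay at -0.06 and -0.05 from their band medians. TFDP1, the partner of E2F factors, which is in no list and was chosen after its values were seen, fell from 1458 to 982. The chromatin enzymes KDM1A (from 1334 to 818) and HDAC3 (from 504 to 391.8) and the corepressor MTA1 (from 1625 to 1249) fell. They were 3 of 4 measured chromatin genes, beside 22.8% of genes above the floor, where all 4 lay in control. In the bands of these 3 genes, 45.3% (above 400 and up to 800) and 42.4% (above 800) of genes fell. Their log2 ratios differed from their band medians by -0.31 (KDM1A), -0.06 (HDAC3) and 0.02 (MTA1).

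Of 16 tested genes of focal adhesion and actin, all above the floor in control, 5 fell and 1 rose, where 22.8% of genes above the floor fell and 15.1% rose. CAV1, the coat protein of caveolae, fell from 1048 to 514, rank 2 from the lowest of 92, and the actin-severing protein GSN from 570.3 to 340.5. The kinase ROCK2 fell from 1578 to 1051, the GTPase CDC42 from 2671 to 1996 and DPYSL3 from 306 to 218. PTK2B, a focal adhesion kinase relative, rose from 115 to 161. The caveolar protein CAVIN1, listed as PTRF, is in no list and was chosen after its values were seen; it rose from 39.6 to 74.5, and its log2 ratio of 0.91 equalled the median of its band to 2 decimals.

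Of 26 tested genes of keratins, desmosomes and epithelial identity, 25 of them above the floor in control, 6 rose and 5 fell. On the panel 11.2% of tested genes rose and 15.9% fell, and 15.1% and 22.8% of those above the floor. KRT7 (34.1 to 83.7), the adhesion molecule CEACAM6 (48.1 to 118) and the fucosyltransferase FUT3 (52.5 to 106) rose. The sodium channel subunit SCNN1A fell from 653 to 374, rank 3 from the lowest of 75, and TSPAN1 from 84.7 to 55.4, the lowest of 58. Of 14 tested junction genes, 13 of them above the floor in control, 4 fell and 2 rose. The falls included E-cadherin, CDH1 (509 to 374), and beta-catenin, CTNNB1 (3253 to 2231). The claudin CLDN3 (135 to 178) was among the rises. Among regulators of the epithelial-mesenchymal transition, SNAI1, a repressor of CDH1, rose from 119 to 275, rank 3 of 75, and ZEB1 from 33.9 to 82.1. The progenitor factor SOX9 fell from 1566 to 1061 and ETV4 from 245 to 191. Vimentin, VIM, was near the floor in both groups, at 39.03 and 35.4, and was not called.

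**Figure D4:**
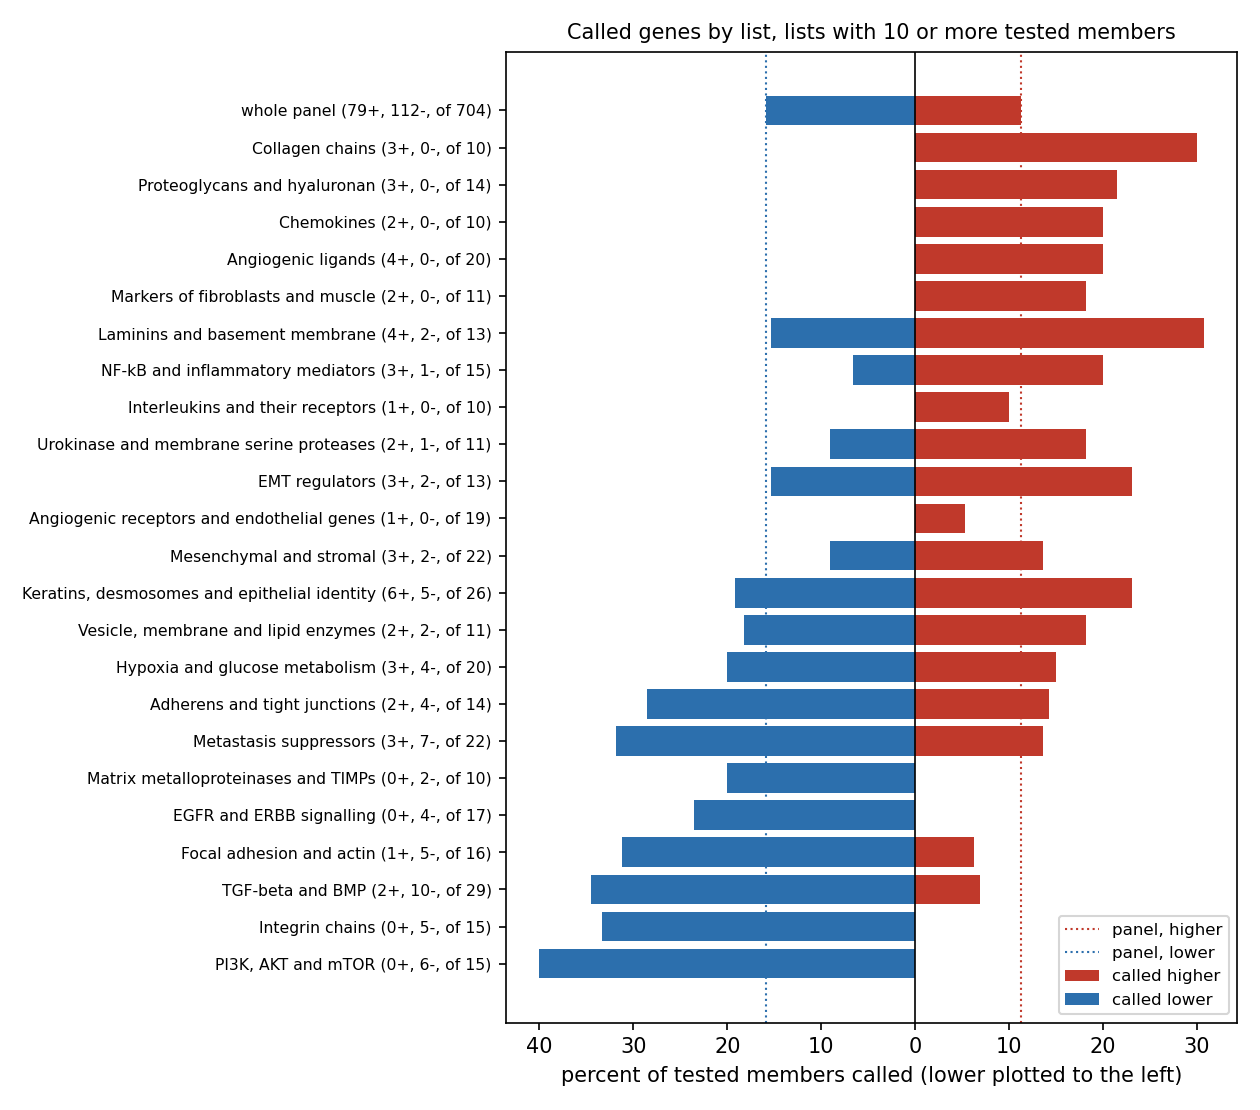
For each gene list with 10 or more tested members, the bars give the percentage of tested members called higher (red, to the right) and called lower (blue, to the left), with the counts in brackets and the whole panel, 79 higher and 112 lower of 704, in the top row; dotted lines carry the panel's percentages down. PI3K, AKT and mTOR genes (6 of 15 lower) and the integrin list (5 of 15 lower) lie to the left and collagens (3 of 10 higher) to the right.

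Of 20 tested genes in the list of angiogenic ligands 4 rose and 0 fell, against 11.2% and 15.9% of the panel. The list mixes genes that promote and genes that inhibit angiogenesis and also holds an enzyme. Its count therefore gives no direction for angiogenesis. ANGPTL4, an inhibitor of lipoprotein lipase, rose from 48.6 to 105, thymidine phosphorylase, TYMP, from 131 to 191, THBS1 from 84.6 to 126 and PDGFA from 86.4 to 118. The log2 ratio of THBS1, 0.57, equalled the median of its band to 2 decimals, and that of PDGFA differed from it by -0.12. VEGFA had means of 461 and 660.1, rank 3 of 75 in its band, with p = 0.06 in the authors' deposited table. NRP1, the co-receptor of semaphorins and VEGF, rose from 42.8 to 139, rank 4 of 90. Of 20 tested hypoxia and glucose genes 3 rose and 4 fell, shares near the 15.1% and 22.8% of all genes above the floor in control. NDRG1, a hypoxia target, rose from 721 to 1084, the highest ratio of 75, and the hexokinase family member HKDC1 from 34.4 to 115. The glycolytic enzymes LDHA (6960.4 to 4594) and PGK1 (3992 to 2683) and the glucose transporter SLC2A1 (273 to 230.0) fell; the log2 ratio of SLC2A1, -0.25, was 0.0058 on equal panel sums. HIF1A fell from 1582 to 1235, but lay 0.04 above the median of its band.

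Other rises among the 15 largest were those of the phospholipase PLA2G2A (33.8 to 93.1), the membrane protein POPDC3 (101 to 253) and the mitochondrial creatine kinase CKMT1A (62.1 to 168). CKMT1A has a near-identical copy, CKMT1B, that a probe may not separate. Against the trend at high level, 2 of 92 genes above 800 rose: clusterin, CLU, from 1169 to 1859, and the housekeeping gene FCF1 from 1695 to 2637. The tryptophanyl-tRNA synthetase WARS1, listed as WARS, rose from 292 to 453, the highest ratio of 101 in its band. CLU and WARS1 were chosen after their values were seen.

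The called genes outside every list were also named after their values were seen. Among those that rose, the nicotinic receptor CHRNA7 went from 168 to 285, the glucocorticoid receptor NR3C1 from 226 to 315 and the antiproliferative gene BTG1 from 324 to 435. ADM2, a peptide of the calcitonin family, rose from 67.3 to 133. Among those that fell, the complement regulator CD46 went from 1211 to 762, the calcium-dependent kinase CAMK2D from 2186 to 1376 and the osmotic stress factor NFAT5 from 666 to 429.7. CD24, a surface glycoprotein of epithelial progenitors, fell from 391.8 to 262. The histone acetyltransferase CREBBP (444 to 366) and the miRNA-processing nuclease DICER1 (514 to 434) fell by less. Their log2 ratios, -0.28 and -0.24, lay above the median of their band, -0.30.

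Among genes with a control mean of 100 or more, the largest ratios without a call were those of VCAN, GDF15, ILK, EPN3 and CHP1. EPN3, an endocytic adaptor, had means of 109 and 189, with p = 0.07 in the authors' deposited table. The calcineurin-like protein CHP1 had means of 103 and 160.4, with p = 0.05 in the authors' deposited table.

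The 10 genes with the highest control means held 28.9% of the panel's summed means, and all 10 means were lower after heteronemin, 3 of them called. Their whole band was similar: of the 92 genes above 800, 86 had a lower mean after heteronemin and 39 fell (42.4%). RPS27A, a ribosomal protein gene, had means of 31235 and 23409.8, at p = 0.05 in the authors' deposited table. The 3 called among the 10 highest were LDHA, the galectin LGALS1 (6573 to 4516) and NME1 (5269.7 to 3553). The panel sum was 333810 in control and 280484 after heteronemin, and these 10 genes made up 46.7% of the difference. Of the 30 housekeeping genes 2 rose and 8 fell, with log2 ratios from -0.70 (SAP130) to 0.72 (TRIM39, not called). On the panel 11.2% of tested genes rose and 15.9% fell, and 15.1% and 22.8% of those above the floor in control. Their geometric mean was 299.6 in control and 296.1 after heteronemin.

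From the floor in control, 213 genes reached a mean above it after heteronemin, with a median of 55.4 and a highest value of 124. The 5 that rose were RUNX1T1, a transcriptional corepressor (124), the collagen-processing enhancer PCOLCE (82.0), the adhesion molecule CADM1 (81.7), HAS1 and the thromboxane receptor TBXA2R (64.4). RUNX1T1 had the highest mean of the 279, at 3.74 times the floor. The matrix protease MMP9, at 73.0 after heteronemin, had p = 0.11 in the authors' deposited table. Of these 213 genes 55 reached 2 times the floor, 4 of them called.

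The p-values of the floor genes were not spread evenly. In the authors' deposited table, 113 of the 213 had a p printed as 0.18 or 0.19 (53.1%), against 7 of the 491 genes above the floor in control (1.43%). As arithmetic, a test of 2 groups with unequal variances gives 0.184 when 2 of 3 treated values are equal and above a floor at which all other values lie, and 0.423 when 1 of 3 is. The test the authors used is not known from the sources used here, and whether these genes have 1 heteronemin sample at the floor was not tested. Their means after heteronemin ran from 37.9 to 97.9, and 24 of the 113 reached 2 times the floor without a call.

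**Figure D5:**
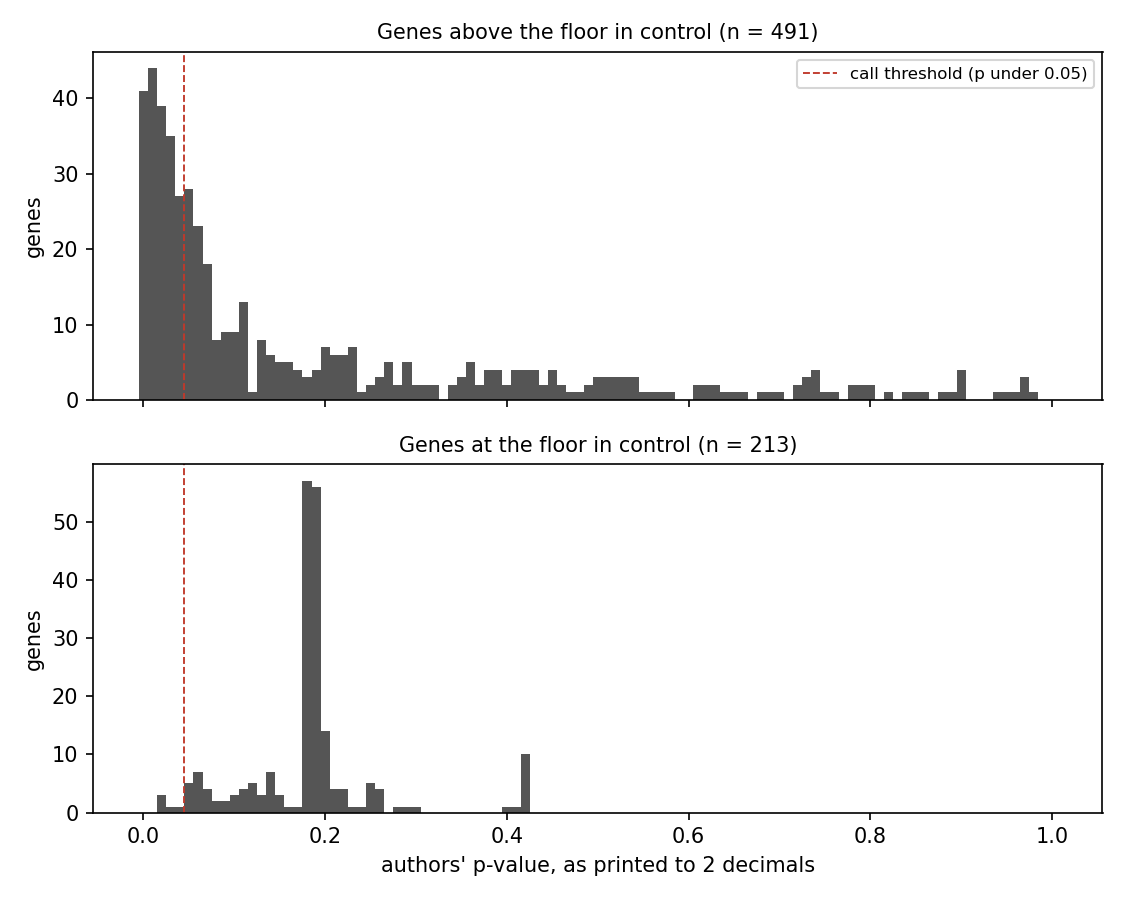
Histograms of the p-values in the authors' deposited table, at the printed step of 0.01, for the 491 genes above the floor in control (top) and the 213 tested genes at it (bottom); the y axis counts genes and the dashed line marks the call threshold. The top panel is highest at the left edge, while the bottom panel has its peak at 0.18 and 0.19 with 113 genes and a smaller one at 0.42 with 10.

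Beside the other treatments, which share the control samples, the leading genes had these values. CXCL8 had an authors' mean of 74.4 after tetrac and 892 after the combination, next to 535 after heteronemin. JUN was at 126 and 569, LAMB3 at 86.2 and 363 and SNAI1 at 124 and 349. JAG1 was at 651 after tetrac and 332 after the combination, and BMP4 at 3219 and 1423. PTGS2 was at 49.8 and 52.8, RUNX1T1 at 53.3 and 52.2 and CKMT1A at 88.7 and 102, with the combination mean below that of heteronemin in each of the 3. These genes were picked after their values were seen, and the differences between treatments were not tested.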

How the data were processed

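RNA of 12 HCT-116 samples, 3 in each of 4 groups, was measured on a NanoString panel, and 6 samples entered this comparison. The authors normalized the raw counts in nSolver 4.0, per the series' design text. Their deposited tables hold a signal per gene and group (the group mean of normalized counts, with a floor of 33), a signed fold change (a score) and a p-value printed to 2 decimals. The kind of mean and the test are not known from the sources used here. From the means, log2 ratios and folds (higher over lower mean) were computed, and p under 0.05 was taken as a call.

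The members and the 46 gene lists were chosen with earlier results of these data known. The genes named were the 15 largest rises and 15 largest falls above the floor, the 10 largest called rises from it, up to 4 called members per list, a fixed set of signalling genes, the 5 largest ratios without a call, the 10 highest control means and 5 housekeeping genes. Genes named beside these were chosen after their values were seen: CEACAM5, RPS6KB1, EPCAM, KRT19, CLDN4, CXCR2, LAMA5, LAMC1, DST, DAG1, ITGA5, ITGB1, FN1, NOTCH1, RBPJ, BMPR2, SMAD1, TGFBR2, RB1, RBL2, CDC42, DPYSL3, ETV4, PGK1, SLC2A1, CREBBP, DICER1 and those marked so in the text. Some genes that the rules name are counted in their lists but not reported here. Promoters are those of RefSeq (GRCh38.p14), matched by symbol. The analysis ran in Python 3.11.15 with pandas 2.3.3 and scipy 1.17.1, and the scripts were tested on simulated data. Alternatives were other p thresholds, Benjamini-Hochberg adjustment, fold and level minimums, and other scalings.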

Additional observations from a re-analysis of the deposited data

How the results depend on the processing

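The means and p-values are the authors', so the spread between samples, the depth and any pairing could not be examined. No paired analysis was possible because the tables hold group means only; for the same reason no replicate could be left out. With 3 samples a group and unadjusted p-values the counts depend on the threshold. The 191 calls (79 higher, 112 lower) became 85 (40 and 45) at a printed p of 0.01 or less, 41 (19 and 22) with Benjamini-Hochberg adjustment of the printed p, and 0 in each direction with the largest p that rounds to it. A fold of 1.5 or more left 95 calls, 31 of them lower, and a fold of 2 or more left 43 (38 and 5). With both means at 100 or more, 127 calls remained in number, 25 of them higher; 25 were higher with a control mean of 100 or more and 51 with either mean at 100 or more. Of the 74 higher calls above the floor in control, 40 passed a printed p of 0.01 or less, 19 the adjustment of the printed p, 0 that of the largest p, 34 a fold of 2, and 25 a control mean, or both means, of 100 or more. The 5 calls at the floor became 10 at a printed p of 0.05 or less, 0 at 0.01 or less and 0 under either adjustment, and 1 with either mean at 100 or more. The cause of these changes is the stricter or looser rule itself.

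Scaling changed few directions among the 120 genes of the rules that were examined for it. These were named largely for the size of their ratios, which makes a turn unlikely. Over all calls, equal panel sums gave 94 higher and 97 lower, against 79 and 112 as reported. Centred on the housekeeping median, MYC turned to 0.0072; on equal panel sums MYC turned to 0.18, SOD1 to 0.085, TGFB1 to 0.096 and VIM to 0.11. The medians of lists shifted with the scaling: that of the PI3K, AKT and mTOR list went from -0.17 to 0.086 on equal panel sums, that of TGF-beta and BMP from -0.14 to 0.11 and that of hypoxia and glucose metabolism from -0.19 to 0.064. With the median of the control band subtracted, an alternative chosen after the data were seen, the log2 ratios of ANXA2P2 (0.12), F11R (0.012), HIF1A (0.040), MTA1 (0.017), MYC (0.32), SKP1 (0.063) and TGFB1 (0.0090) turned positive, and those of ERBB2 (-0.19), ERBB3 (-0.22), ICAM1 (-0.29), PDGFA (-0.12) and PFKFB1 (-0.31) negative. Of the 120, 108 kept their direction.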
